A study of Mus musculus with 9 samples.

Results

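Heat shock proteins and their DnaJ co-chaperones were examined in the uterus of mice given a bisphenol. The genes were chosen by symbol alone: all Hspa, Hspb, Dnaja, Dnajb and Dnajc genes with a number, plus Hsp90aa1, Hsp90ab1, Hsp90b1, Hsph1, Hspd1 and Hspe1. This rule found 70 of the 34745 lines in each library, of which 14 belong to the HSP70 and HSP110 family, 3 to HSP90, 2 to the mitochondrial chaperonin, 8 to the small heat shock proteins, and 4, 13 and 26 to the A, B and C classes of DnaJ proteins. All mice were wild-type CD-1 (ICR) females, an outbred stock, bought at 7 to 8 weeks of age, acclimatized for 1 week and kept on food free of estrogen. Dosing was by gavage over 28 days with corn oil in the control group and with 1 of the bisphenols, bisphenol B (BPB) or bisphenol AF (BPAF), in the exposed groups. The daily dose of either was 300 µg per kg of body weight, and each group gave 3 uterus libraries. BPB and BPAF are analogs of bisphenol A whose bridging carbon carries a methyl and an ethyl group in BPB and a pair of trifluoromethyl groups in BPAF. Estrous stage and time of collection are not stated, and the labels do not say outright that replicates came from separate mice, so p-values measure the spread between these libraries.

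Chaperones of the HSP70 family bind exposed hydrophobic stretches of unfolded proteins in cycles driven by ATP. DnaJ proteins deliver the client and stimulate ATP hydrolysis through their J domain, HSP110 and other exchange factors release ADP, and HSP90 completes the folding of kinases and steroid receptors, estrogen and progesterone receptors of the uterus among them. Small heat shock proteins hold unfolded proteins without ATP and are abundant in muscle, and separate HSP70, HSP90 and DnaJ proteins serve the endoplasmic reticulum (ER) and the mitochondria.

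Levels are in FPKM, the fragments counted per kilobase of a gene relative to library depth, and rest on 12620213 (control 3) to 15616765 (BPB 2) reads per library, as recovered from the values. The 13 protein-coding mitochondrial genes made up 34.1% of the FPKM sum in control 3, 14.02% and 14.1% in controls 1 and 2, and 19.6% to 27.04% in the exposed libraries. The uterine genes Hoxa10, Hoxa11, Esr1 and Pgr were detected in all 9 libraries. Markers of the urothelium, the lining of the bladder, stood apart: 8 of them summed to 29.6 to 77.8 FPKM in controls and 1540.3 to 2565 FPKM in BPB, while BPAF ranged from 9.03 to 1324 FPKM, with the high value in BPAF 1. Upk3a, a defining uroplakin, was at 0 in all 3 controls and in BPAF 2 and 3. Markers of 11 smooth muscle genes summed to 3671 to 5907 FPKM in controls, 7738 to 12415 FPKM in BPB and 1107 to 3590 FPKM in BPAF, and none was at 0 in any library. In whole tissue, fewer cells of a type and less RNA per cell cannot be told apart.

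Of the 70 genes, 63 reached 1 FPKM in at least 3 libraries and were tested. The other 7 were Dnajb13, Dnajb7, Dnajb8, Dnajc22, Dnajc6, Hspb3 and Hspb9, and Dnajb8 was listed at 0 in all 9 libraries. Differences were tested with limma on log2(FPKM + 1) in 1 fit of 13743 genes, adjusted by Benjamini-Hochberg over all of them, and called at an adjusted p under 0.05. Log2 differences are on that scale, where changes of weakly expressed genes come out too small.

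The promoters of the genes on which the results turn are shown first, as the 250 bases before the annotated start in RefSeq GRCm38.p6, read in the direction of the gene. RefSeq promoters were matched by symbol for 57 of the 70 genes. The sequences of Hspa1a (chr17:34972157-34972406, minus strand), Hspa1b (chr17:34959239-34959488, minus strand) and Hspb6 (chr7:30553051-30553300, plus strand, 1 of its 2 windows) are printed because Hspb6 and Hspa1b were called in a test and Hspa1a is the near copy of Hspa1b. Capitals mark matches to GAANNTTC, a pair of units of the heat shock element that heat shock factor 1 binds, which was searched on both strands. For Hspb6 the printed window is the 1 of its 2 that held a match.
Hspa1a: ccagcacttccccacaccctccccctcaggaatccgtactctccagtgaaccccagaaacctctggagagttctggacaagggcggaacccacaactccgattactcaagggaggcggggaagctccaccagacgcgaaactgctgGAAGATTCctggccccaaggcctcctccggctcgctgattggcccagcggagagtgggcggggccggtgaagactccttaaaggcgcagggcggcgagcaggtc
Hspa1b: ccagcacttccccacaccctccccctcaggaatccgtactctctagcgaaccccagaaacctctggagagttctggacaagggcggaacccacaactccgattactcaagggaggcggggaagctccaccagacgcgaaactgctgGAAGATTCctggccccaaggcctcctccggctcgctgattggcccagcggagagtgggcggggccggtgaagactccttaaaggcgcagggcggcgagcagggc
Hspb6: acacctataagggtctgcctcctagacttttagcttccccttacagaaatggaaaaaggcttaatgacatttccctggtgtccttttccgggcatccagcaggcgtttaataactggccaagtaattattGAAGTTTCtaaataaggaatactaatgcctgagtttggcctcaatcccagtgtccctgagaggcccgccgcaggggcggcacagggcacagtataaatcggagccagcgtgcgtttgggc
The windows of Hspa1a and Hspa1b differed at 3 of 250 bases, and their single match lay 104 to 97 bases before the start in both. The motif was present in 6.69% of all 32851 windows of this length. Counted per gene, 7.73% of all genes in the table and 11 of the 57, or 19.3%, had a window with it. The reversed pair TTCNNGAA was present in 7.17% of all windows, in 8.11% of all genes and in 6 of the 57, or 10.5%. The run of 3 units, GAANNTTC continued by NNGAA, overlaps both and was present in 0.466% of all windows, in 0.514% of all genes and in Dnajb6, Hspd1 and Hspe1, and the latter pair lie head to head on opposite strands.

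For the ER chaperones, capitals mark CCAAT followed after 9 bases of any kind by CCACG, the ER stress element through which ATF6 and NF-Y act in the unfolded protein response. The windows of Hspa5 (chr2:34771840-34772089, plus strand), Hsp90b1 (chr10:86705445-86705694, minus strand) and Dnajc3 (chr14:118937682-118937931, plus strand) are printed because these were the 3 genes of the 57 that held it.
Hspa5: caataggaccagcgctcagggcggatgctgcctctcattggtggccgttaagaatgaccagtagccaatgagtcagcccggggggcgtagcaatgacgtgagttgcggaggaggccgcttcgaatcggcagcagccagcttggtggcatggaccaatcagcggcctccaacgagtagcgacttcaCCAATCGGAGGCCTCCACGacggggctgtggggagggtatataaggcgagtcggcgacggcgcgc
Hsp90b1: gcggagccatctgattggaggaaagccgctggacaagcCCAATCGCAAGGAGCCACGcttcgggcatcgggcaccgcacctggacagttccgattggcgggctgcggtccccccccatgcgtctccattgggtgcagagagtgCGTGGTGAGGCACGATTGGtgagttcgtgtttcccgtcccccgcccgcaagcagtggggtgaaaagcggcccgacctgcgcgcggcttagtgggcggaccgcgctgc
Dnajc3: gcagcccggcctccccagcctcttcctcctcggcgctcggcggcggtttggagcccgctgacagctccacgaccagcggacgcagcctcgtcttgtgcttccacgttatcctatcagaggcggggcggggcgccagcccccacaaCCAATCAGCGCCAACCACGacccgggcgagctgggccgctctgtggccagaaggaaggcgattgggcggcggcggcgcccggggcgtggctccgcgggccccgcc
Of all 32851 windows, 37 held this element on either strand, or 0.113%, and 0.13% of all genes had such a window. Hsp90b1 held it at 2 positions, 212 to 194 bases before the start and, on the other strand, 107 to 89 bases before it. A match describes the letters and does not show that a factor binds there.

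The uterus expressed a broad set of chaperones. By mean FPKM over all 9 libraries the highest were Hsp90ab1 (302), the constitutive cytosolic HSP90, Hsp90b1 (231), the HSP90 of the ER, and Hspa8 (149), the constitutive cytosolic HSP70. They were followed by Hspd1 (131), which builds the mitochondrial chaperonin, Hspa5 (130.5), the HSP70 of the ER known as BiP, and Hspe1 (89.6), the lid of the chaperonin. Hspa9, the mitochondrial HSP70, averaged 74.2 FPKM, the J-protein Dnaja2 74.1 FPKM, the small heat shock protein Hspb8 69.1 FPKM and the exchange factor Hspa4 64.6 FPKM. Together the 70 genes made up 0.529% to 0.745% of the FPKM sum in controls, 0.448% to 0.616% in BPB and 0.517% to 0.634% in BPAF, with overlapping ranges. Levels are compared between genes only roughly, since for 46 of the 70 genes the length behind the value equalled the sum of all distinct annotated exons, overlapping exons counted repeatedly.

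**Figure D1:**
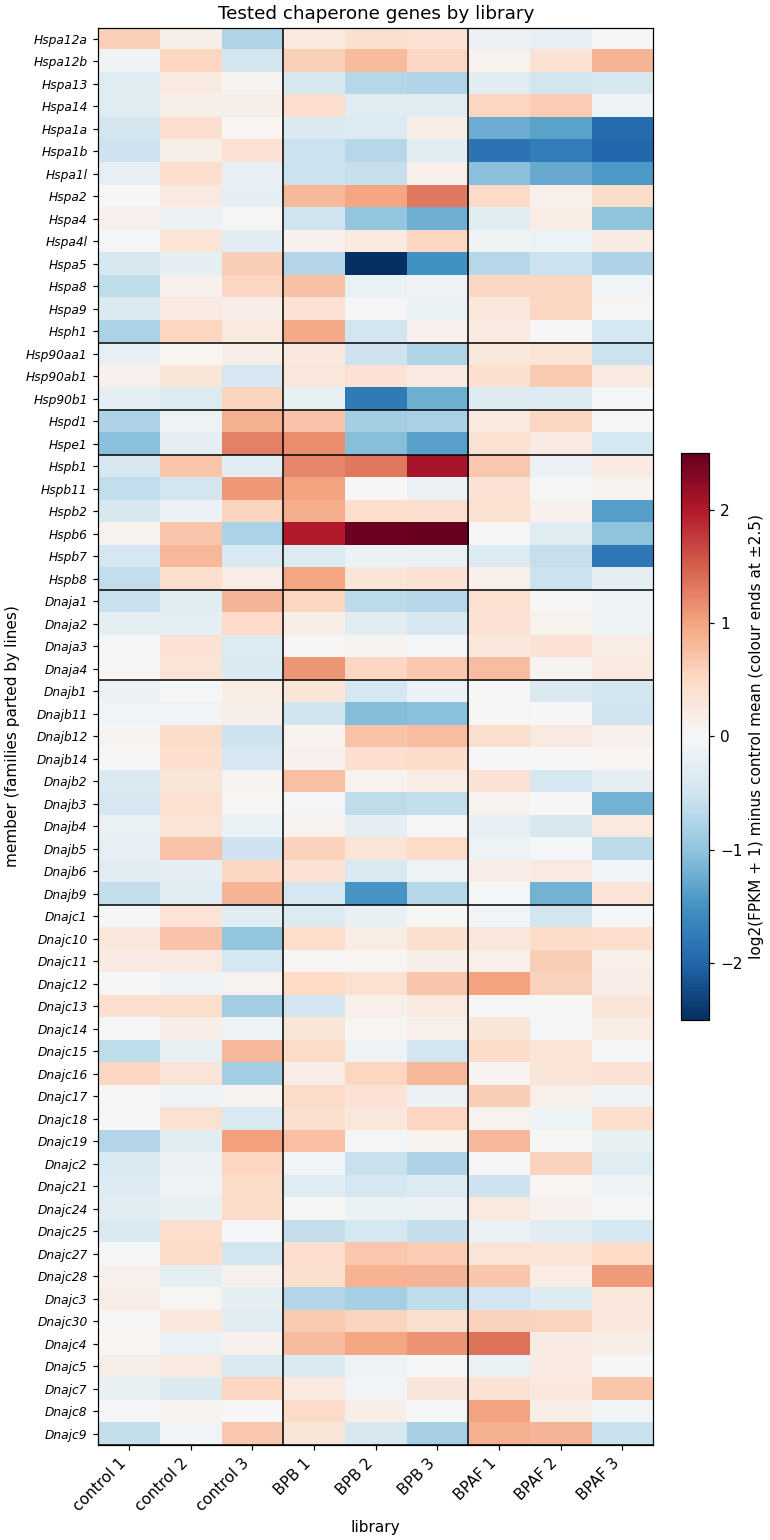
Each row is 1 of the 63 tested genes and each column 1 library, coloured by log2(FPKM + 1) minus the control mean of that gene, with red for higher and blue for lower and the colour scale ending at 2.5 in either direction. Hspb6 is red in all 3 BPB libraries, Hspa1a, Hspa1b and Hspa1l are blue in all 3 BPAF libraries, and Hspd1 and Hspe1 are red in control 3 and BPB 1.

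In BPB uteri, Hspb6, a small heat shock protein of smooth muscle known for its part in relaxation, rose 6.84-fold over control in mean FPKM. It was the only one of the 63 genes that limma called in this comparison, where 2.55% of all genes tested were called. At an unadjusted p under 0.05, 13 of the 63 differed, 7 higher and 6 lower in BPB, against 17.4% of all genes. The groups did not overlap for 8 genes higher in BPB, against 19.5% of all genes, and for 6 lower, against 6.1% of all genes. As shares of the 63 these were 12.7% and 9.52%. The 8 were Hspb6, Hspa2, Hspb1, Dnajc4, Dnaja4, Dnajc28, Dnajc30 and Dnajc12, and the 6 were Hspa5, Dnajb11, Dnajc3, Hspa13, Hspa4 and Dnajc25. Dnajc28 was below 1 FPKM in all controls and passed the filter through the exposed libraries alone, where it was high. Exons of Dnaja4 share 44.1% of their bases with Wdr61 and those of Dnajc30 26.2% with Bud23, on the opposite strand. Reads of Dnaja4 and Dnajc30 are therefore uncertain. The median log2 difference of the 63 was 0.05, beside 0.15 over all genes.

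Hspb6 stood at 2.68, 4.62 and 1.01 FPKM in controls 1, 2 and 3. It stood at 12.7, 17.95 and 26.2 FPKM in BPB, and at 2.53, 1.82 and 0.728 FPKM in BPAF. All 3 BPB libraries were above all other libraries, and BPAF overlapped with control. The BPB mean was 18.9 ± 6.78 FPKM and the control mean 2.77 ± 1.81 FPKM (SD, n = 3), and the log2 difference was 2.47 (SE 0.43, 95% interval 1.498 to 3.44, limma adjusted p = 0.0264). These values rest on 59 to 296 reads per control library and 858 to 1622 per BPB library. The call was lost without control 1 (limma adjusted p = 0.0967), control 3 (0.0654), BPB 2 (0.136) or BPB 3 (0.138), each left out alone, while the log2 difference stayed between 2.08 and 2.82.

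Other small heat shock proteins were measured beside it. Hspb1, which protects actin filaments, stood at 24.8, 55.2 and 27.3 FPKM in controls, 78.9, 85.4 and 144 FPKM in BPB and 54.1, 30.2 and 38.9 FPKM in BPAF. All BPB values lay above all control and BPAF values, with a log2 difference from control of 1.54 (SE 0.39) that missed the threshold (limma adjusted p = 0.0735). Hspb8, which works with Bag3 in the clearance of damaged filament proteins, stood at 39.4, 81.4 and 68.75 FPKM in controls, 121, 74.3 and 78.1 FPKM in BPB and 66.5, 41.4 and 50.8 FPKM in BPAF. Its BPB libraries overlapped with control, and its log2 difference was 0.55 (SE 0.35, limma adjusted p = 0.469). Hspb7, a small heat shock protein of heart and muscle, averaged 38.7 ± 21.3 FPKM in control, 30.4 ± 2.24 in BPB and 20.2 ± 9.41 in BPAF (SD, n = 3), with control 2 at 63.3 FPKM far above the other controls. Hspb2, another muscle member, averaged 4.85 ± 2.13, 7.55 ± 1.73 and 4.18 ± 2.69 FPKM in control, BPB and BPAF, and its exons share 30.2% of their bases with Cryab on the opposite strand, so that its reads are uncertain. Hspb11, an intraflagellar transport protein in spite of its symbol, was highest in control 3 (10.4 FPKM) and BPB 1 (9.85 FPKM) and overlapped between groups.

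Smooth muscle markers were read in the same libraries. The mean log2(FPKM + 1) of the 11 markers was 7.25, 7.75 and 6.77 in controls, 8.22, 8.54 and 9.01 in the BPB libraries and 6.93, 6.78 and 5.62 in those of BPAF. In all BPB libraries, 9 of the 11 lay above all controls. The 8 urothelial markers stood at 1.27 to 1.38 in controls and at 6.74, 7.25 and 7.46 in BPB, and 7 of the 8 lay above all controls. In BPAF 1 the urothelial mean was 6.50, above all controls. The smooth muscle mean of 6.93 and the Hspb6 value of 2.53 FPKM in that library were within the control range. The 7 skeletal muscle markers summed to 70.02 to 152 FPKM in controls and 193 to 489 FPKM in BPB, and 3 of them lay above all controls. The part of these cell types in the Hspb6 difference was not tested.

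**Figure D2:**
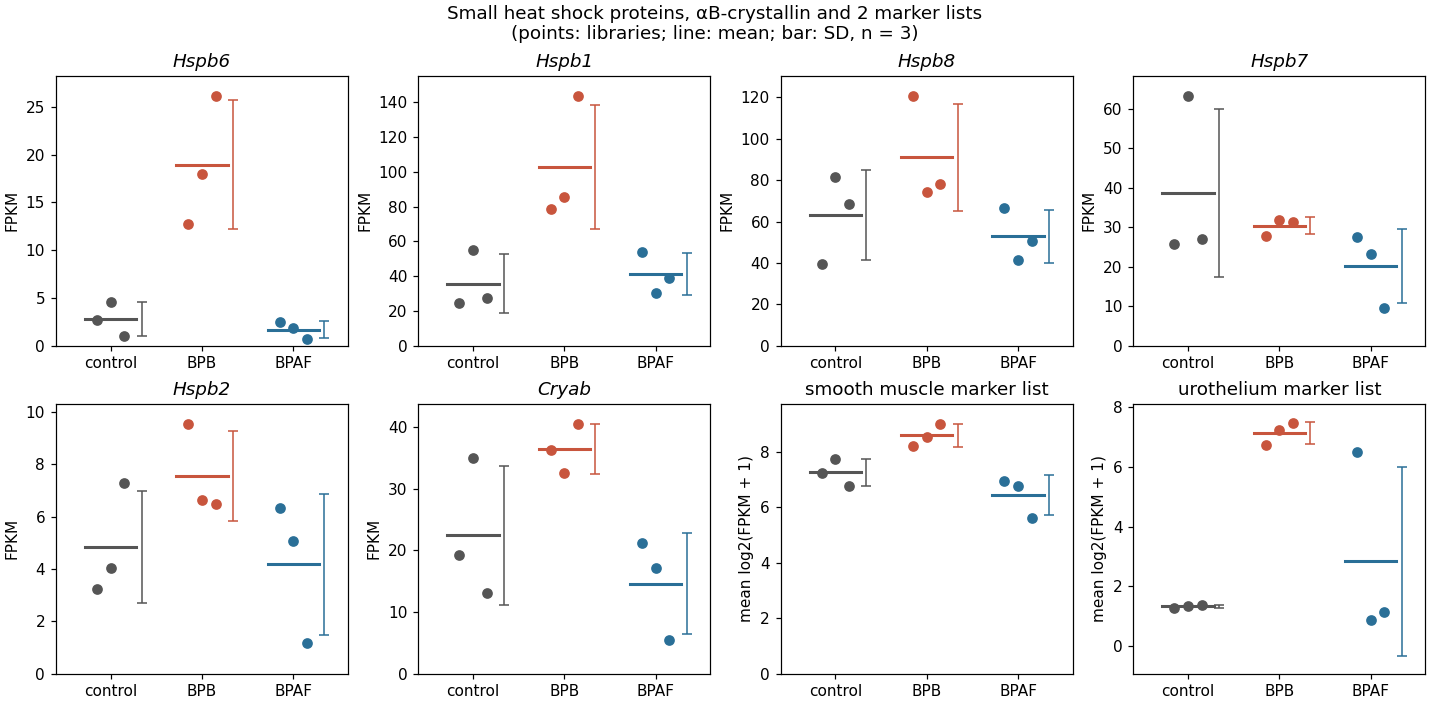
Points are single libraries, horizontal lines the group mean and bars the SD (n = 3) for 5 small heat shock protein genes and Cryab in FPKM, and for the smooth muscle and urothelium marker lists in mean log2(FPKM + 1). Hspb6 and Hspb1 in BPB lie above all control and BPAF libraries, and both marker lists are highest in BPB, with BPAF 1 also high for the urothelium list.

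Members of the HSP70 family outside the ER included Hspa2, best known from the testis, at 6.13, 7.24 and 5.09 FPKM in controls, 11.4, 13.1 and 16.6 FPKM in BPB and 8.91, 6.77 and 8.78 FPKM in BPAF. All BPB values were above all others, and the log2 difference from control of 1.04 (SE 0.24) missed the threshold (limma adjusted p = 0.0553). Hspa4, an exchange factor of the HSP110 group, stood at 88.7, 74.6 and 84.2 FPKM in controls and 57.7, 40.9 and 34.9 FPKM in BPB without overlap, with a log2 difference of -0.90 (SE 0.34, limma adjusted p = 0.204). Hsph1, the heat-inducible HSP110, averaged 9.49 ± 4.39 FPKM in control and 11.1 ± 6.11 in BPB (SD, n = 3), with overlap. Hspa8 averaged 135 ± 50.9 FPKM in control, 149 ± 55.3 in BPB and 164 ± 35.4 in BPAF, and Hsp90ab1 257 ± 63.1, 309 ± 13.8 and 340.5 ± 50.4 FPKM. Neither constitutive chaperone separated the groups, and the heat-inducible Hsp90aa1 did not either (59.3 ± 7.71, 48.7 ± 19.2 and 62.3 ± 19.01 FPKM).

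Among the 24 tested DnajC genes, 4 had BPB libraries wholly above control (16.7%, against 19.5% of all genes) and 2 wholly below (8.33%, against 6.1%). Dnajc4 stood at 8.10, 6.84 and 8.39 FPKM in controls, 14.2, 16.2 and 17.95 FPKM in BPB and 21.5, 9.13 and 8.69 FPKM in BPAF. Both exposed groups lay above all controls, and the difference of BPB from control was 0.96 (SE 0.33, limma adjusted p = 0.166). Dnajc12, a co-chaperone of the aromatic amino acid hydroxylases, stood at 1.09, 0.982 and 1.22 FPKM in controls, 1.97, 1.71 and 2.39 FPKM in BPB and 3.20, 2.13 and 1.34 FPKM in BPAF. Dnajc28 stood at 0.951, 0.555 and 0.961 FPKM in controls, 1.40, 2.33 and 2.26 FPKM in BPB and 1.92, 1.06 and 2.80 FPKM in BPAF. Both lay above all controls in either exposed group, at low levels. Their values rest on 53 to 160 (Dnajc12) and 52 to 253 (Dnajc28) recovered reads per library. Dnajc30, a mitochondrial J-protein, averaged 10.4 ± 2.20 FPKM in control, 15.3 ± 1.44 in BPB and 14.5 ± 1.85 in BPAF (SD, n = 3), and only its BPB libraries were clear of control. None of these passed in limma against control (adjusted p = 0.166 to 0.98 over the 24 genes in BPB, 0.376 to 0.991 in BPAF).

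Chaperones of the ER had mostly lower fitted values in BPB, although none was called. Of the 8 tested, 7 were fitted lower in BPB than in control, 5 were lower at an unadjusted p under 0.05, and 4 had BPB libraries wholly below control. Over all genes, 17.4% passed an unadjusted p under 0.05 in either direction and 6.1% were wholly below control. Their median log2 difference was -0.80, beside 0.15 over all genes, and was -0.21 in BPAF against control. Under the scalings tried, this median stayed negative in BPB (-1.04 by median ratios). The 4 without overlap were Hspa5, Dnajb11, Dnajc3 and Hspa13.

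Hspa5, the HSP70 of the ER and a target of the unfolded protein response, stood at 144, 164 and 294 FPKM in controls, 114, 32.7 and 66.1 FPKM in BPB and 116, 132 and 111 FPKM in BPAF. Control 3 was high and BPB 2 low, and both exposed groups lay below all controls. The log2 difference of BPB from control was -1.59 (SE 0.45, 95% interval -2.60 to -0.58, limma adjusted p = 0.104). Hsp90b1, whose promoter held the stress element at 2 positions, stood at 246, 227 and 419 FPKM in controls, 251, 83.7 and 123 FPKM in BPB and 227, 227 and 277 FPKM in BPAF. BPB 1 overlapped with control, and the difference was -1.05 (SE 0.42, limma adjusted p = 0.237). Dnajb11, a J-protein of the ER lumen, stood at 30.3, 30.03 and 35.1 FPKM in controls, 22.17, 14.5 and 14.9 FPKM in BPB and 32.6, 32.2 and 22.25 FPKM in BPAF. Its BPB libraries lay below all others, with a difference from control of -0.88 (SE 0.26, limma adjusted p = 0.119). Dnajc3, which restrains the kinase PERK, stood at 51.1, 47.1 and 38.5 FPKM in controls and 27.01, 25.1 and 28.6 FPKM in BPB, a log2 difference of -0.73 (SE 0.26, limma adjusted p = 0.185). Its BPAF libraries at 32.2, 35.9 and 54.8 FPKM overlapped with control and lay above BPB. Hspa13 averaged 12.8 ± 2.43 FPKM in control and 7.91 ± 1.26 in BPB (SD, n = 3), and Dnajb9, a target of XBP1, 64.2 ± 36.7 and 32.9 ± 11.8 FPKM, with overlap for the latter.

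Genes of the same compartment were also read from the partner lists. Of the 57 tested partners, limma called 1 in BPB against control, where 2.55% of all genes tested were called. Sdf2l1, a partner of Dnajb11 in the ER lumen, fell in BPB, from 37.09, 37.1 and 49.8 FPKM in controls to 20.9, 7.40 and 13.8 FPKM, with 28.8, 25.5 and 36.3 FPKM in BPAF. The log2 difference was -1.59 (SE 0.35, limma adjusted p = 0.0493). This call was lost without any 1 of the 3 controls (adjusted p = 0.138, 0.0966 and 0.109 in limma), BPB 2 (0.181), BPB 3 (0.187) or any 1 BPAF library (0.0623, 0.0575 and 0.0576). It was also lost with the other filters on low values (0.0570 to 0.0864 in limma), pseudocounts of 0.1 (0.0630) and 0.01 (0.0741) and equal FPKM sums (0.0544). Pdia6 and Pdia4, protein disulfide isomerases, averaged 138.7 ± 17.6 and 105 ± 10.3 FPKM in control and 57.5 ± 21.4 and 56.3 ± 9.47 FPKM in BPB (SD, n = 3), with limma adjusted p = 0.0726 and 0.0864. Pdia3, Calr and Canx also lay wholly below control in BPB. Not all such partners did: Hyou1 and Serpinh1 overlapped with control, and Sil1 was fitted higher in BPB (log2 difference 0.48, limma adjusted p = 0.535). The 9 uterine epithelial markers summed to 3224 to 4993 FPKM in controls, 966 to 1413 FPKM in BPB and 1556 to 2840 FPKM in BPAF, without overlap. Most of this sum in controls was Sprr2f, at 2489 to 3925 FPKM in controls and 6.37 to 283 FPKM in BPB. The highest BPAF sum, in BPAF 3, was mostly Prss28 at 2289 FPKM. Prss28 was at 0 and 0.173 FPKM in BPAF 1 and 2 and at 311 FPKM in BPB 3. In BPB, 2 of the 9 lay below all controls and 1 above, Krt18, at 295 to 518 FPKM against 112 to 187 FPKM in controls. The mean log2(FPKM + 1) of the 9 overlapped, at 5.26 to 5.96 in controls and 4.89 to 5.40 in BPB. The part of epithelial cells in the ER result was not tested.

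**Figure D3:**
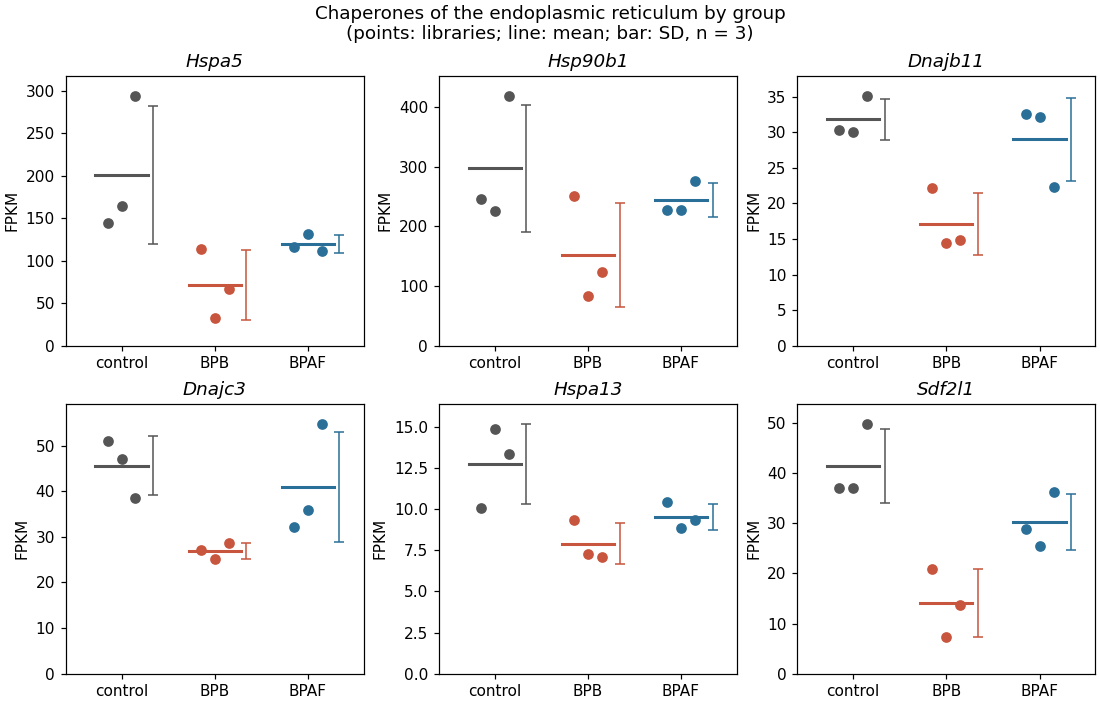
Points are single libraries in FPKM, horizontal lines the group mean and bars the SD (n = 3), for 5 ER chaperone genes and the partner Sdf2l1. The BPB libraries lie below all controls in every panel apart from Hsp90b1, where BPB 1 overlaps with control.

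In BPAF uteri, the 3 neighbouring genes Hspa1a, Hspa1b and Hspa1l had levels below all controls, although limma called none of the 63 genes against control. Here 0.0218% of all genes tested were called. At an unadjusted p under 0.05, 5 of the 63 differed, 2 higher and 3 lower, against 12.8% of all genes. The groups did not overlap for 3 genes higher in BPAF (Dnajc28, Dnajc12 and Dnajc4), against 14.3% of all genes, and for 4 lower (Hspa1b, Hspa1a, Hspa1l and Hspa5), against 2.5% of all genes. Of these, Dnajc28 was tested only through its exposed libraries, as all its controls were below 1 FPKM. The median log2 difference of the 63 was 0.09, beside 0.21 over all genes. Both comparisons use the same 3 control libraries.

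Hspa1b encodes the major stress-inducible HSP70. It stood at 18.3, 29.5 and 34.4 FPKM in controls, 18.04, 15.9 and 21.6 FPKM in BPB and 6.65, 7.33 and 6.03 FPKM in BPAF. All BPAF libraries were below all 6 other libraries, and BPB overlapped with control. The BPAF mean of 6.67 ± 0.652 FPKM was 4.11-fold lower than the control mean of 27.4 ± 8.23 (SD, n = 3), a log2 difference of -1.85 (SE 0.27, 95% interval -2.45 to -1.24, limma adjusted p = 0.129). The values rest on 775 to 1216 reads per control library and 226 to 300 recovered reads per BPAF library. In the joint test of the 3 groups, which called 0.844% of all genes, Hspa1b changed (limma adjusted p = 0.0372), as did Hspb6 (0.0372). Leaving out BPAF 1 (adjusted p = 0.0483 in limma) or BPAF 2 (0.0487) kept the joint call for Hspa1b, while it was lost without control 1, 2 or 3 (0.0865, 0.0916 and 0.0628), BPB 1, 2 or 3 (0.0869, 0.167 and 0.188) or BPAF 3 (0.0838). For Hspb6 the joint call held without BPAF 1 (0.0186 in limma) or BPAF 2 (0.0387) and was lost without each of the other 7 libraries (0.0541 to 0.219).

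Hspa1a, a near copy of Hspa1b, stood at 7.60, 14.8 and 11.2 FPKM in controls, 8.22, 8.33 and 12.1 FPKM in BPB and 4.02, 3.67 and 2.12 FPKM in BPAF. The BPAF libraries again lay below all 6 others, with a difference from control of -1.50 (SE 0.31, limma adjusted p = 0.213). The transcripts of these 2 genes share 58.8% of the 50-base windows of Hspa1a and 62.3% of those of Hspa1b, so how reads were split between them is uncertain and their values are not independent. Hspa1l, a related gene known from the testis, shares 9.57% of its windows with Hspa1a and 7.72% with Hspa1b. It stood at 3.46, 5.84 and 3.46 FPKM in controls, 2.52, 2.46 and 4.62 FPKM in BPB and 1.48, 1.14 and 0.907 FPKM in BPAF, without overlap between BPAF and the rest, and its difference from control was -1.25 (SE 0.28, limma adjusted p = 0.23). The BPAF values of Hspa1l rest on only 30 to 47 recovered reads per library. The gene Gm10501 lies on the opposite strand over 71.9% of the exon bases of Hspa1l, and since the counting is not stated to use strand, reads of the pair cannot be told apart. Gm10501 stood at 0.482, 1.18 and 0.756 FPKM in controls and 2.06, 2.30 and 1.97 FPKM in BPAF, the opposite order to Hspa1l.

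The other genes of the heat shock list overlapped between BPAF and control. These 10 genes, which include the constitutive Hspa8 and Hsp90ab1 and the mitochondrial Hspd1 and Hspe1, had log2 differences of -0.28 to 0.43 between BPAF and control (limma adjusted p = 0.554 to 0.994). Dnajb1, the heat-inducible J-protein that partners HSP70, stood at 24.3, 26.5 and 31.3 FPKM in controls and 27.2, 20.98 and 19.5 FPKM in BPAF, and Dnaja1 averaged 19.03 ± 11.1 and 18.7 ± 3.67 FPKM (SD, n = 3). The 6 genes flanking the Hspa1 cluster (Neu1, Slc44a4, Ehmt2, Lsm2, Vars and Clic1) had log2 differences of -1.20 to 0.51 between BPAF and control. None was called (limma adjusted p = 0.409 to 0.80), as none of the Hspa1 genes was. Clic1 lay below all controls in BPAF, at 114, 115 and 73.8 FPKM against 146, 124 and 175 FPKM. Slc44a4 had the lowest log2 difference and overlapped with control, and Neu1, Ehmt2, Lsm2 and Vars were fitted higher.

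**Figure D4:**
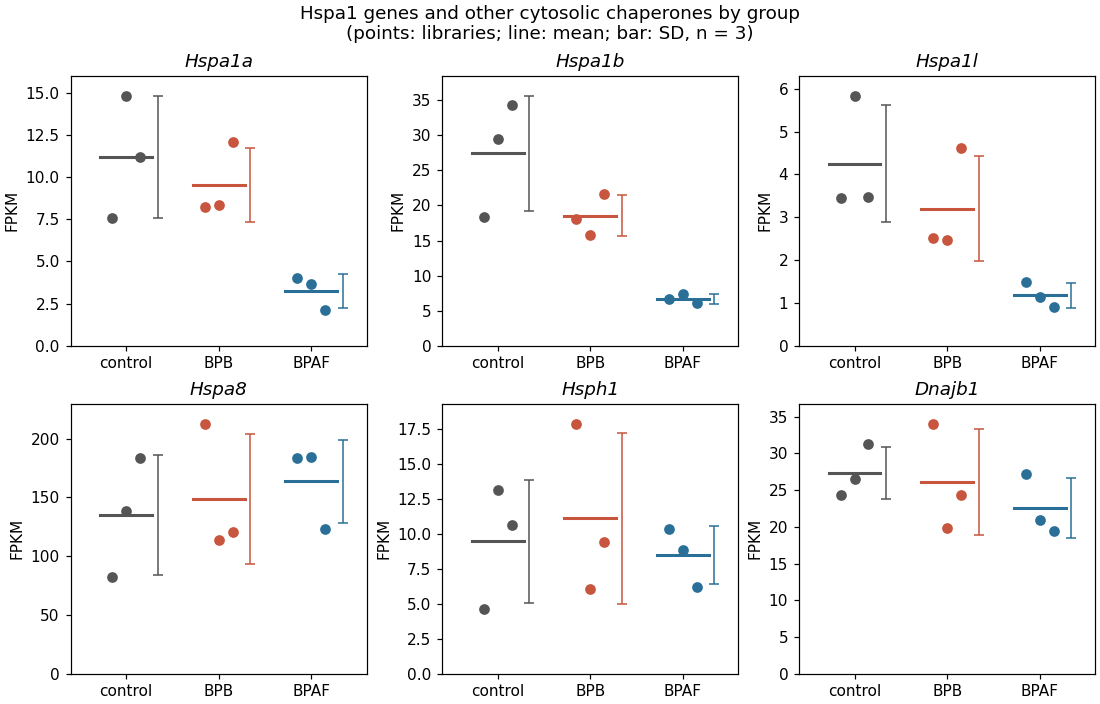
Points are single libraries in FPKM, horizontal lines the group mean and bars the SD (n = 3), for the 3 Hspa1 genes and 3 other cytosolic chaperones. For Hspa1a, Hspa1b and Hspa1l the 3 BPAF libraries lie below all control and BPB libraries, while Hspa8, Hsph1 and Dnajb1 overlap between groups.

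At the same dose by mass, BPAF and BPB uteri differed in Hspb6, which was 11.2-fold lower in mean FPKM in BPAF, and limma called no other of the 63 genes between them, where 0.24% of all genes were called. The log2 difference was -2.89 (SE 0.43, 95% interval -3.86 to -1.92, limma adjusted p = 0.0438). With the replicate number as a block over all 9 libraries the call was lost (limma adjusted p = 0.181). That block includes the controls, which did not pair with exposed libraries by number, and a block of BPAF with BPB alone was not tested. Leaving out 1 library kept the call only for BPAF 1 (limma adjusted p = 0.0161). Without any 1 of the other 8 libraries the adjusted p of Hspb6 in limma was 0.0604 to 0.331. At an unadjusted p under 0.05, 7 of the 63 differed, 1 higher and 6 lower in BPAF, against 6.75% of all genes. The groups did not overlap for 4 genes higher in BPAF (Dnajb11, Dnajc3, Dnaja3 and Dnajc25), against 6.54% of all genes, and for 12 lower, against 6.41% of all genes. The 12 included 5 of the 6 tested small heat shock proteins, the 3 Hspa1 genes, Hspa2, Hspa12a, Dnajb5 and Dnajb14.

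Between the bisphenols, all 6 tested small heat shock proteins had lower fitted values in BPAF, with a median log2 difference of -0.82 beside 0.07 over all genes. For Hspb1 the difference was -1.29 (SE 0.39, limma adjusted p = 0.359). For Hspa1b it was -1.34 (SE 0.27, 95% interval -1.94 to -0.74, limma adjusted p = 0.116), for Hspa1a -1.31 (SE 0.31, limma adjusted p = 0.188) and for Hspa2 -0.68 (SE 0.24, limma adjusted p = 0.493). Dnajb5, a cytosolic J-protein, stood at 5.89, 4.83 and 5.57 FPKM in BPB and 3.24, 3.52 and 1.97 FPKM in BPAF. Dnajb11 was the only gene higher in BPAF than in BPB at an unadjusted p under 0.05, with a log2 difference of 0.73 (SE 0.26, limma adjusted p = 0.499). Hspa5 (0.92, limma adjusted p = 0.794) and Hsp90b1 (0.82, limma adjusted p = 0.83) had larger differences but overlapped between the bisphenols. The intervals of Hspa8 (-0.69 to 1.03) and Hsp90ab1 (-0.52 to 0.78) allow a difference in either direction. Smooth muscle markers in BPAF lay below those in BPB in all libraries, and their part in these differences was not tested.

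**Figure D5:**
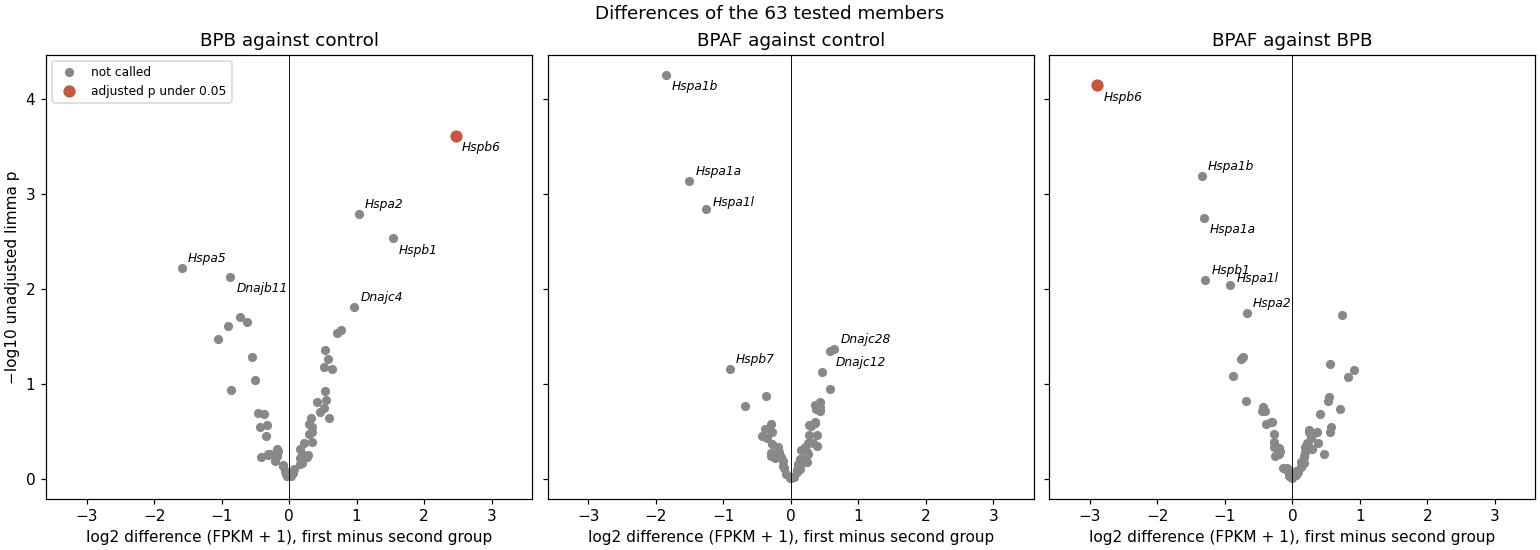
Each point is 1 of the 63 tested genes, with the log2(FPKM + 1) difference of the first minus the second group on the horizontal axis and -log10 of the unadjusted limma p on the vertical axis, in 3 panels. Only Hspb6 is marked as called, in BPB against control and in BPAF against BPB, and the 3 Hspa1 genes stand at the left of the panel of BPAF against control.

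The remaining DnaJ classes held no called gene. All 4 DnajA genes had higher fitted values in BPAF than in control, with a median log2 difference of 0.19, but only 1 of 4 did under scaling by median ratios, where the median was -0.10 and that of all genes -0.02. Of the 10 tested DnajB genes, 4 were fitted higher and 6 lower in BPB, and 3 higher and 7 lower in BPAF, with medians of -0.06 and -0.13. Of the 24 tested DnajC genes, 14 were fitted higher in BPB and 20 in BPAF, with medians of 0.16 and 0.23 beside 0.15 and 0.21 over all genes, and under that scaling the medians turned to -0.08 and -0.04. Within a group, the median SD of log2(FPKM + 1) of the 63 single genes was 0.42 in control, 0.29 in BPB and 0.28 in BPAF. Over all genes it was 0.42, 0.27 and 0.35 in that order.

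The mitochondrial chaperonin genes varied widely between control libraries and between BPB libraries, and neither was called in any comparison. Hspd1 stood at 70.7, 111 and 227 FPKM in controls, 199, 67.2 and 69.3 FPKM in BPB and 143, 176 and 117 FPKM in BPAF. Hspe1 stood at 38.5, 68.6 and 193 FPKM in controls, 181, 37.99 and 30.5 FPKM in BPB and 105, 93.05 and 58.5 FPKM in BPAF. Control 3 and BPB 1 were high for both, and their groups overlapped. Hspa9 averaged 68.6 ± 14.2, 71.02 ± 14.4 and 82.8 ± 13.98 FPKM in control, BPB and BPAF (SD, n = 3), with overlap. Control 3, which had the highest mitochondrial gene share, was the highest library for 15 and the lowest for 18 of the 63 genes.

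Partners of the chaperones were read from lists of 62 genes, of which 57 were tested. Against control, limma called 1 lower in BPB, Sdf2l1, and none in BPAF, and none between BPAF and BPB. Of all genes tested, 2.55%, 0.0218% and 0.24% were called in these comparisons. At an unadjusted p under 0.05 there were 8, 4 and 5 in the 3 comparisons, or 14%, 7.02% and 8.77% of the 57, against 17.4%, 12.8% and 6.75% of all genes. Of the 14 tested subunits of the TRiC chaperonin, which folds actin and tubulin, and of prefoldin, which delivers to it, none was called, and 13 had higher fitted values in BPAF than in control, with a median log2 difference of 0.19 beside 0.21 over all genes, while under scaling by median ratios 5 of 14 were higher and the median was -0.10. Hscb, a J-domain protein of mitochondrial iron-sulfur cluster assembly, stood at 3.81, 3.23 and 5.40 FPKM in controls, 10.1, 7.999 and 9.61 FPKM in BPB and 16.5, 9.33 and 9.49 FPKM in BPAF. Both exposed groups lay above all controls, with limma adjusted p = 0.0963 for BPB and 0.23 for BPAF. Cryab, the small heat shock protein known as alpha B-crystallin, averaged 22.5 ± 11.3, 36.4 ± 4.03 and 14.6 ± 8.17 FPKM in control, BPB and BPAF, and BPAF was below BPB in all libraries (log2 difference -1.44, SE 0.48, limma adjusted p = 0.456).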

How the data were processed

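Poly(A) RNA of mouse uterus was sequenced in 9 libraries (3 each for corn oil, BPB and BPAF) from a stranded kit, per the labels' protocols. The deposited files give 1 value per gene symbol, read from the values as FPKM computed by the authors. Unit, aligner, build, annotation and strand use: not given in the sources used here. For genes with 1 GENCODE M21 transcript, values times length came within 0.01 of whole reads for 82.7% to 85.98% of values, which gave the depths. Of 34745 lines, 126 with repeated symbols were left out. RefSeq (GRCm38.p6) gave promoters.

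The 13743 genes that reached 1 FPKM in 3 or more libraries entered limma 3.58.1 (R 4.3.3, trend and robust estimation, pseudocount 1, all 9 libraries, group the only term, two-sided, Benjamini-Hochberg). The procedure was tested on simulated data. Named were called members, the 8 smallest p in each comparison, 22 key chaperones and the 10 highest. Of the partners, those called or with 1 of the 2 smallest p of a list were named. Hspb11, Gm10501, the genes flanking Hspa1 and the partners Pdia3, Calr, Canx, Hyou1, Serpinh1 and Sil1 were added after their values were seen. Members and lists were chosen with earlier results of these data known. Deviations of same-numbered libraries correlated between BPB and BPAF (0.34, 0.34 and 0.48), a hint from the data only, and negatively between control and either (-0.40 to -0.08). Alternatives were other filters, pseudocounts, scalings, limma settings, a replicate block and leaving out each library. Replicate files were not copies (at most 0.43% of values identical).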

Additional observations from a re-analysis of the deposited data

Results flagged for a closer look

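Hspb6 differed between the 2 bisphenols at the same dose. The log2 difference of BPAF minus BPB, which is the difference between the effects of BPAF and BPB against the shared controls, was -2.89 (limma adjusted p = 0.0438), with 1.69 ± 0.908 FPKM in BPAF and 18.9 ± 6.78 FPKM in BPB (SD, n = 3).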

How the results depend on the processing

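Called members numbered 1 in BPB against control, 0 in BPAF against control, 1 between the bisphenols and 2 in the joint test. All but the count of 0 became 0 with a filter of 1 FPKM in all libraries (which drops Hspb6 from the test) or above 0 in any, pseudocounts of 0.1 and 0.01, equal FPKM sums, or the replicate block. BPAF against BPB was also 0 in its 6 libraries alone and, in an alternative added after seeing the data, with equal FPKM sums without mitochondrial genes, where the joint count was 1. At an adjusted p under 0.1, BPB against control gave 3. Leaving out 1 library gave 0 to 1, 0, 0 to 1 and 0 to 2 calls in that order. BPAF against control stayed at 0 in all of these. Scaling by median ratios moved the members' median log2 difference to -0.19 in BPB and -0.18 in BPAF against control, and the median of all genes from 0.15 to -0.04 and from 0.21 to -0.02. Leaving out 1 library put the members' medians at -0.10 to 0.15, -0.03 to 0.19 and -0.08 to 0.13. Single genes were checked only in the comparison where they had among the smallest p, plus Hspa5 and Hsp90b1 in the comparisons with BPB. None of these changed direction: 564 checks kept their side of the threshold and 24 lost the call. All 24 were checks of Hspb6, the only gene called in these comparisons. The other genes had no call to lose and gained none, so the 564 say little about how stable a call is. Other named genes could change direction. Hspb1 was fitted higher in BPAF than in control (log2 difference 0.25). Under scaling by median ratios all 6 tested small heat shock proteins were fitted lower there, Hspb1 included. With the block, the limma adjusted p against control in BPB was 0.0623 for Hspb6 and 0.0761 for the partner Sdf2l1, so that both calls were lost. Of 12 pairings of control with exposed libraries, 0 were closest by number, and of 6 between the bisphenols, 6. At 12620213 to 15616765 reads, low genes such as Dnajc28 and Hspa1l rest on few reads, down to 52 and 30 in a library.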
